A study of Mus musculus with 48 samples.

Results

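Potassium channel genes were taken as every gene of the deposited count table whose symbol begins with Kcn, which gave 95 of 23284 genes. They encode pore-forming subunits and the auxiliary proteins that bind them, and also include Kcnq1ot1, a long noncoding RNA that lies antisense to Kcnq1. RNA came from the preoptic area of mice of the genotype GnRH CRE x Floxed L10a-GFP, in which Cre made in neurons that express gonadotropin-releasing hormone (GnRH) switches on a ribosomal protein, L10a, tagged with green fluorescent protein. Each library was either the GnRH-enriched immunoprecipitate (IP) or the GnRH-depleted supernatant. The series title speaks of females, although 1 line of the protocols mentions both sexes. Age was young (prepubertal) or adult (females in diestrus), and the prenatal treatment was vehicle or the androgen dihydrotestosterone (DHT). All 8 groups carried Cre and the tag. The 4 young groups and the 2 adult DHT groups had 6 libraries each, and the 2 adult vehicle groups had 5 each. A further pair, 1 IP and 1 supernatant library, came from young mice labelled Floxed L10a-GFP, a genotype that names no Cre, with NoGFP as the treatment. Replicates are labelled biological, but whether a library is 1 mouse or a pool is not stated, so p-values measure only the spread between these samples, which may be in part technical.

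Potassium channels let potassium leave the cell and so bring a neuron back toward rest. Voltage-gated pores (Kcna, Kcnb, Kcnc, Kcnd, Kcnh and Kcnq genes) shape the action potential and the pauses between spikes, and calcium-activated channels (Kcnma1 and the Kcnn genes) set the hyperpolarization that follows it. Inward rectifiers (Kcnj) and two-pore-domain channels (Kcnk) set the resting potential, and some inward rectifiers answer G proteins or ATP. The modifier genes (Kcnf, Kcng, Kcns, Kcnv) make subunits that form channels only together with other pore subunits, and auxiliary subunits (Kcnab, Kcne, Kcnip, Kcnmb) change the gating or surface number of the pores. In GnRH neurons such currents are known to govern how the cells fire in bursts.

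The 23 IP libraries held 28672556 to 47054029 counts each, and the 23 supernatant libraries held 28136000 to 55479451. All 5 GnRH neuron markers (Gnrh1, Isl1, Six6, Kiss1r and Gal) were higher in the IP by the test described next. Of the markers of other cells, 6 of 8 astrocyte and 5 of 7 oligodendrocyte markers were lower in the IP and 0 were higher. The IP still held RNA of other cells, since the summed oligodendrocyte markers were at 1227 to 5428 CPM (counts scaled to the library total) in IP libraries against 2069 to 6791 in supernatant libraries. The summed GnRH neuron markers ran from 1947 to 7105 CPM in young vehicle and from 3043 to 4191 in young DHT IP libraries. In adult vehicle and adult DHT IP libraries they ran from 2189 to 16675 and from 815 to 13669 CPM. The IP without Cre held 219 CPM of them. What this spread adds to differences within the IP was not tested. The 10 highest sample numbers, read from the labels, all belong to young mice (2 vehicle and 3 DHT libraries in each fraction). Where a call described here was repeated without them and lost, the adjusted p is given. Not followed one by one were the calls of Kcna1, Kcnc4, Kcnh2, Kcnj9, Kcnmb4 and Kcnq1ot1 between the fractions over all conditions. The same holds for calls of members under 1 CPM, of cell type markers and of genes other than Kcn genes. Because the tissue was sequenced in bulk, fewer cells of a type and less RNA per cell cannot be told apart.

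Of the 95 members, 85 had enough counts to be tested between the fractions. The 10 that did not (Kcna7, Kcna10, Kcne1, Kcnj1, Kcnj15, Kcnk15, Kcnk16, Kcnk18, Kcnmb3 and Kcnv2) averaged at most 0.128 CPM in either fraction. Divided by exon length, the highest levels in the supernatant were those of the beta subunit gene Kcnab2 (49.4 CPM per kb), the Kv4-binding proteins Kcnip4 (43.9) and Kcnip1 (29.6), the beta subunit gene Kcnab3 (24.5) and the two-pore channel gene Kcnk1 (23.9). The same 5 genes led the IP in another order: Kcnip4 at 48.2, Kcnip1 at 34.6, Kcnk1 at 26.5, Kcnab3 at 26.3 and Kcnab2 at 20.7 CPM per kb. So Kcnab2 led the supernatant and came after the other 4 in the IP. Exons of 9 members overlap an exon of a gene on the other strand, among them Kcnk3, Kcnip4, Kcnt2, Kcnh3 and the pair Kcnq1 and Kcnq1ot1, and the library kit does not keep the strand, so reads of such partners cannot be told apart.

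Between the fractions, 27 of the 85 tested members differed over the mean of the 4 conditions (edgeR adjusted p below 0.05), 7 of them higher in the IP and 20 lower. That is 31.8% of the tested members, while 46.1% of all 16660 genes tested were called. Higher in the IP were 8.24% of the members against 24.4% of all genes, and lower were 23.5% against 21.7%. The median log2 fold change of the members was -0.26, and that of all genes was -0.0032. By class, the voltage-gated pores of the Kcna, Kcnb, Kcnc and Kcnd genes had 6 lower and 0 higher of 15 tested. The Kcnh and Kcnq pores were counted apart, with 1 lower and 0 higher of 8 and 2 lower and 1 higher of 5. Inward rectifiers had 3 lower and 0 higher of 13, and auxiliary genes 4 higher and 3 lower of 14. When each IP was paired with the supernatant of the same number as a block, 49 members were called (56.4% of all genes), 6 higher (21.2%) and 43 lower (35.2%), and 26 of the 27 were among them. The block fit thus called further members, which are not listed here. A member described below as not called between the fractions was not called in the fit without the block, and may be called with it. Within single conditions the counts were lower. In young vehicle mice 11 members were called (21.9% of all genes), 4 higher (11.3%) and 7 lower (10.5%). In young DHT mice 13 were called (20% of all genes), 5 higher (10.7%) and 8 lower (9.21%). In adult vehicle mice 15 were called (24% of all genes), 2 higher (12.8%) and 13 lower (11.2%). In adult DHT mice 14 were called (21.5% of all genes), 2 higher (11.6%) and 12 lower (9.83%). Without the 10 highest sample numbers, 6 were called in young vehicle and 5 in young DHT mice. Those fits held fewer young libraries, and the share of all genes called in them was not counted.

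**Figure D1:**
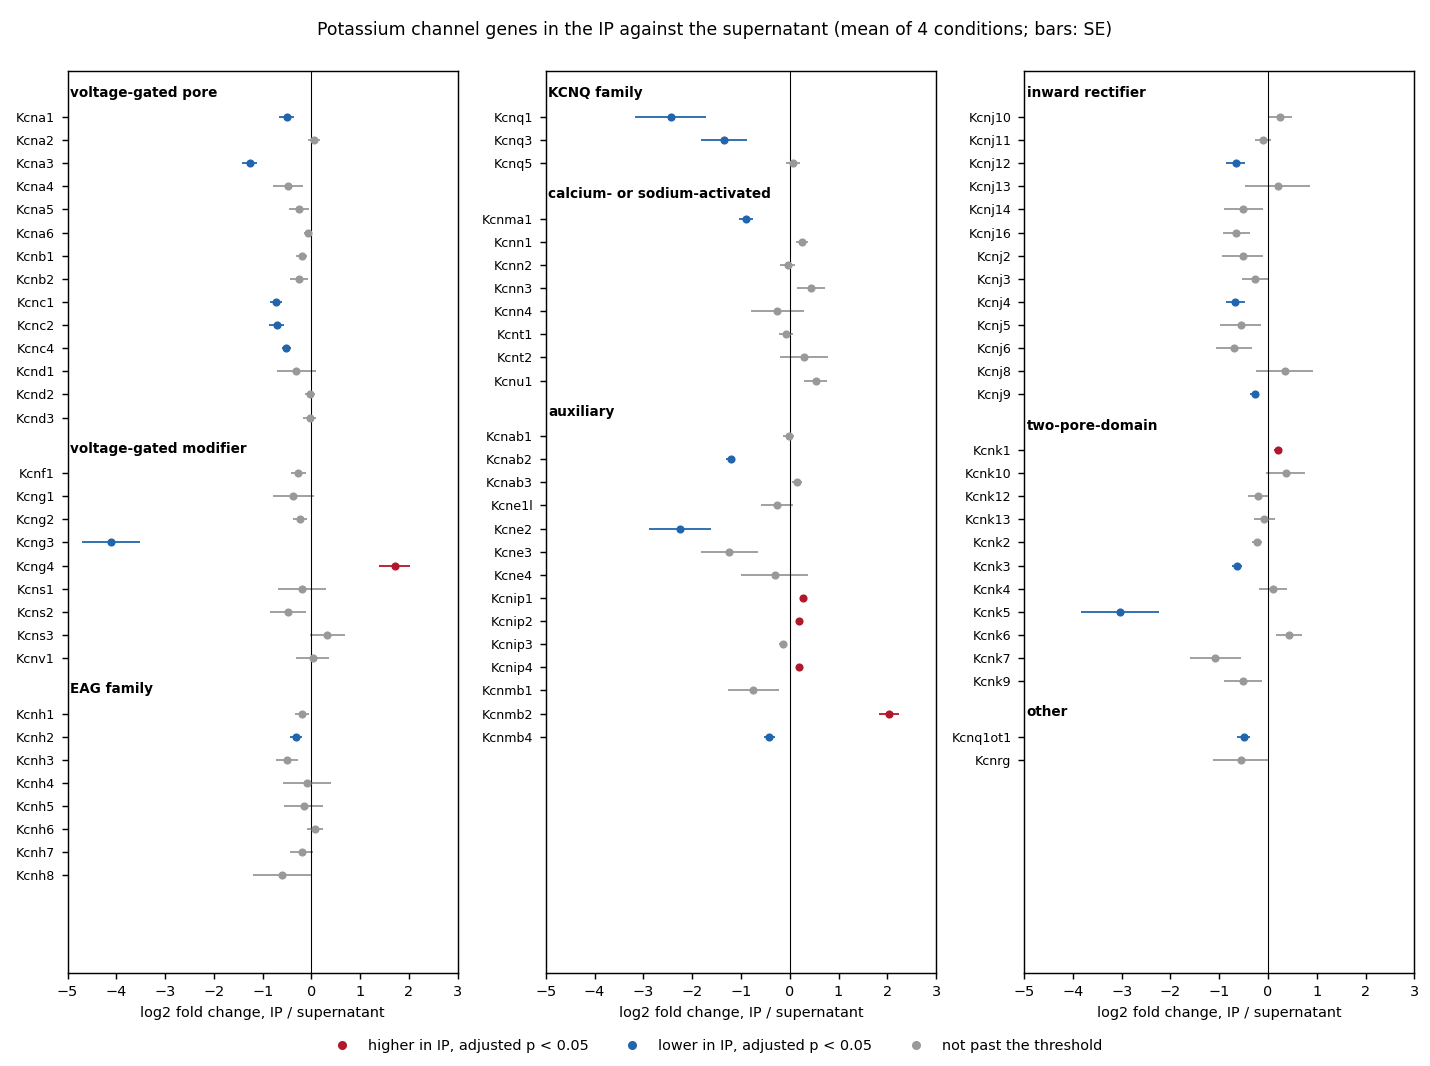
Log2 fold change between IP and supernatant (x axis) of 82 of the 85 tested potassium channel genes, grouped by class, as the mean of the 4 conditions with its standard error (bars); red marks 6 genes higher and blue 19 genes lower in the IP at an edgeR adjusted p below 0.05. Kcnmb2 and Kcng4 stand farthest to the right, and Kcnc1, Kcnc2, Kcnc4 and Kcnab2 lie to the left of 0.

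Kcnmb2, which encodes a beta subunit of the large-conductance calcium-activated (BK) channel that makes the channel inactivate, was 4.1-fold higher in the IP and was called in all 4 conditions. In the supernatant its level ran from 1.52 to 3.27 CPM over the 23 libraries. In the IP it had a lowest, median and highest level of 2.01, 8.04 and 11.4 CPM in young vehicle, 4.18, 11.5 and 13.6 in young DHT and 5.08, 10.4 and 22.3 in adult DHT mice. The 5 adult vehicle IP libraries were at 0.717, 10.1, 10.6, 14.8 and 19.0 CPM. Thus 21 of 23 IP libraries lay above every supernatant library, and 1 adult vehicle library lay below all of them. On the log2 scale the difference was 2.03 ± 0.21 (SE; edgeR adjusted p = 6.58e-11), with 1.67 ± 0.41, 2.21 ± 0.42, 2.07 ± 0.46 and 2.19 ± 0.42 in young vehicle, young DHT, adult vehicle and adult DHT mice. GENCODE places Kcnmb2 at 31902507 to 32200180 of chromosome 3, plus strand, in build GRCm38.

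Kcng4, a modifier subunit that joins Kv2 pores, was 3.25-fold higher in the IP, with a log2 difference of 1.70 ± 0.32 (edgeR adjusted p = 1.57e-05). Supernatant libraries ran from 2.53 to 6.34 CPM. The 5 adult vehicle IP libraries were at 10.9, 10.9, 13, 29.6 and 45.0 CPM, all above the supernatant. The 6 adult DHT IP libraries had a median of 10.8 CPM, and 2 of them, at 0.162 and 0.307 CPM, lay below the supernatant, while the highest reached 35.4. It was called in adult vehicle (2.67 ± 0.70, edgeR adjusted p = 0.00409) and adult DHT mice (2.01 ± 0.62, adjusted p = 0.0165), but the adult DHT call was lost with the replicate block (0.74, adjusted p = 0.592) and in 2 of 12 fits without 1 library (adjusted p up to 0.0749, without adult DHT IP replicate 6), and also with limma-voom (0.18, adjusted p = 0.884) and with the compared groups alone (adjusted p = 0.177). In young mice the values were 1.19 ± 0.61 and 0.94 ± 0.61 in vehicle and DHT, with edgeR adjusted p of 0.18 and 0.319. The change with age in the IP minus that in the supernatant was 1.49 ± 0.90 in vehicle and 1.06 ± 0.85 in DHT mice (edgeR adjusted p = 0.57 and 0.756).

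The bases directly before the RefSeq start of these 2 genes, and of Kcnip2, the gene with the clearest difference by age in the IP, show how unlike the promoters of the members can be. Each line gives the 250 bases before the start on the gene's own strand, 5′ to 3′, in build GRCm38.p6, and capitals mark the GC box GGGCGG.
Kcnmb2, chr3:31902453-31902702, plus strand: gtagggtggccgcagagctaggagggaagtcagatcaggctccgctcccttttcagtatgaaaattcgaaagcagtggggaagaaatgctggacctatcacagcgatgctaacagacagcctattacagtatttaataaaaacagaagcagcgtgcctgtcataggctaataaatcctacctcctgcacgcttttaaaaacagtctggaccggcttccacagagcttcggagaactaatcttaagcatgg
Kcng4, chr8:119635681-119635930, minus strand: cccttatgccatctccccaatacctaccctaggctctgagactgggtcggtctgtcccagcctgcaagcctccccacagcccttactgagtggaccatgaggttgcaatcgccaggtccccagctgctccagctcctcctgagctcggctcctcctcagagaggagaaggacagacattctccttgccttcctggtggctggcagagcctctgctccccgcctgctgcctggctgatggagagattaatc
Kcnip2, chr19:45816064-45816313, minus strand: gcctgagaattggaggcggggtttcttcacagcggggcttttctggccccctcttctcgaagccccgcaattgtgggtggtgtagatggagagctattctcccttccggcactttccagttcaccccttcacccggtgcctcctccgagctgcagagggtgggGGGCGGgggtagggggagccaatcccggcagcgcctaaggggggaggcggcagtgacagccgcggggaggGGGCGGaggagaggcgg
The window of Kcnip2 had 66.8% G and C with 15 CpG and 2 GC boxes, 87 and 17 bases before the start, whereas that of Kcnmb2 had 47.2% with 8 CpG and that of Kcng4 60.4% with 4 CpG, both without a GC box. GENCODE starts some Kcnmb2 transcripts inside this window. Promoters were found in RefSeq for 70 members. The motifs were counted in the 97 promoter windows of all RefSeq symbols that begin with Kcn, which were not limited to these members. GGGCGG (either strand) lay in 44.3% of the 97 windows against 32.7% of all 32851. The other motifs searched on both strands were the homeobox core TAATCC (2.06% of Kcn and 6.25% of all windows), the cyclic AMP response element TGACGTCA (0% and 1.55%), the full palindromic estrogen response element (0% and 0.064%) and the full palindromic androgen response element (0% and 0.009%), and none of them lay in the 3 windows shown. These genes and motifs were chosen after the values were seen, and a match is a run of letters, not a binding site.

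Kcnq3, which encodes a pore of the slow M-type current, was lower in the IP at 0.906 against 1.68 CPM (log2 difference -1.34 ± 0.47, edgeR adjusted p = 0.0175). The 5 adult vehicle IP libraries were at 0, 0, 0.0256, 0.193 and 0.526 CPM, below all their supernatants at 1.41 to 2.25 CPM, whereas adult DHT IP libraries ran from 0 to 5.95 CPM and overlapped theirs. The call was lost without the 10 highest sample numbers (adjusted p = 0.0722). Kcnq5, another M-current pore, was not called, at 0.06 ± 0.15.

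Small differences toward the IP were found for 3 genes of Kv4-binding proteins and for Kcnk1. Kcnip1 was at 235 ± 34.1 CPM in the IP and 179 ± 9.12 in the supernatant of young vehicle mice (SD, n = 6 each) and at 242 ± 24.9 and 173 ± 8.02 in young DHT mice. Its log2 fold change over all conditions was 0.27 ± 0.05 (edgeR adjusted p = 4.63e-05), with 0.39 ± 0.11 and 0.53 ± 0.11 in young vehicle and DHT mice (the DHT call was lost without the 10 highest sample numbers, adjusted p = 0.108) and 0.10 ± 0.12 and 0.06 ± 0.11 in adults. The other members of this group were Kcnip2 (0.20 ± 0.07), Kcnip4 (0.19 ± 0.05) and Kcnk1 (0.19 ± 0.07). The calls of Kcnip2 and Kcnk1 were lost in 6 and 5 of 46 fits without 1 library, with an edgeR adjusted p of up to 0.085 (Kcnip2, without young DHT IP replicate 6) and 0.0685 (Kcnk1, without adult vehicle supernatant replicate 4). Both calls were also lost without the 10 highest sample numbers (0.121 and 0.153). All 4 genes were likewise higher in the IP of the pair without Cre, where the ratio of IP to supernatant was 1.58 for Kcnip1, 1.30 for Kcnip2, 1.41 for Kcnip4 and 1.5 for Kcnk1.

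Kcnab2, which encodes a beta subunit of Kv1 channels, had the smallest p of all members and was 2.32-fold lower in the IP (log2 difference -1.21 ± 0.08, edgeR adjusted p = 2.48e-16). Its lowest, median and highest levels were 71.3, 93.6 and 131 CPM in young vehicle IP and 250, 269 and 337 in young vehicle supernatant. The 5 adult vehicle libraries were at 92.3, 117, 122, 138 and 194 CPM in the IP and at 227, 272, 272, 274 and 304 in the supernatant. All 23 IP libraries, at 62.0 to 194 CPM, lay below all 23 supernatant libraries, at 221 to 337 CPM. The gene was called in all 4 conditions, with values from -1.52 ± 0.16 in young vehicle to -0.92 ± 0.18 in adult vehicle mice. The pair without Cre differed as much, at 96.1 against 316 CPM (ratio 0.304).

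Kcna3, a Kv1 pore gene, was also called in all 4 conditions, with a log2 difference of -1.27 ± 0.15 (edgeR adjusted p = 3.29e-09). The adult DHT call was lost with limma-voom (adjusted p = 0.074) and the adult vehicle call with the compared groups alone (0.0922). The adult vehicle IP libraries were at 3.95, 4.23, 10.4, 12.6 and 14.9 CPM and their supernatants at 12.7, 22.0, 22.3, 24.5 and 24.6. Of the 23 IP libraries, 19 lay below every supernatant library. Kcna1, the pore gene that gives low-threshold Kv1 currents, was lower by 0.51 ± 0.16 on the log2 scale in the mean of the conditions (edgeR adjusted p = 0.00756) and in none of the 4 alone, with adjusted p from 0.22 to 0.404. Kcna2 was not called, at 0.05 ± 0.13.

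Kcnc1, Kcnc2 and Kcnc4, genes of Kv3 channels, which let neurons fire fast, were lower in the IP. Kcnc1 had a log2 fold change of -0.73 ± 0.11, Kcnc2 -0.72 ± 0.16 and Kcnc4 -0.51 ± 0.09, with edgeR adjusted p from 8.41e-07 (Kcnc1) to 0.000201 (Kcnc2). The levels of Kcnc1 in the 5 adult vehicle IP libraries were 34.4, 39.8, 48.4, 52.4 and 138 CPM against 67.4, 95.9, 100.1, 105 and 112 in their supernatants, so 1 IP library lay above them all. Of the 23 IP libraries, 18 lay below every supernatant for Kcnc1, 16 for Kcnc2 and 20 for Kcnc4. In the pair without Cre the ratios of IP to supernatant were 0.634, 0.748 and 0.494 for Kcnc1, Kcnc2 and Kcnc4, also below 1. None of the 3 tested Kv4 pore genes was called, with log2 fold changes of -0.31 ± 0.40 for Kcnd1, -0.03 ± 0.10 for Kcnd2 and -0.03 ± 0.13 for Kcnd3.

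**Figure D2:**
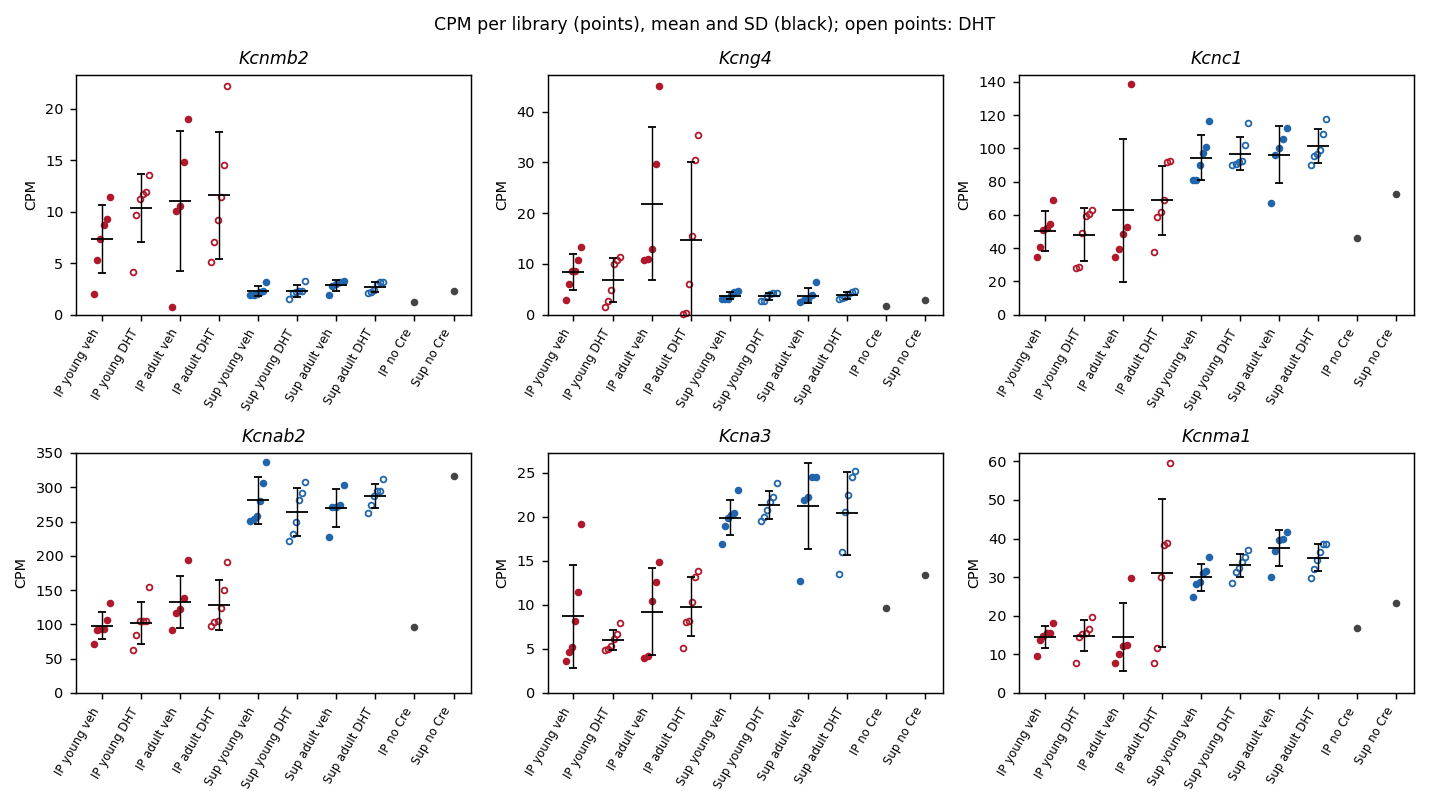
CPM (y axis, linear from 0) of 6 genes in each library, with the mean and SD of each group in black; red points are IP, blue supernatant and dark grey the pair without Cre, and open points are DHT. In the IP, 21 of 23 Kcnmb2 values and 15 of 23 Kcng4 values lie above every supernatant library, Kcnab2 lies below it in all 23 IP libraries, and 1 adult vehicle IP library of Kcnc1 stands at 138 CPM.

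Kcnma1, the pore of the BK channel that Kcnmb2 and Kcnmb4 bind, was lower in the IP by 0.89 ± 0.14 on the log2 scale (edgeR adjusted p = 1.15e-06). It was called in young vehicle (-1.05 ± 0.28), young DHT (-1.12 ± 0.28) and adult vehicle mice (-1.27 ± 0.31), and in adult DHT mice it stood at -0.12 ± 0.28 (edgeR adjusted p = 0.826). Without the 10 highest sample numbers the values in young mice were -1.01 and -1.09, and neither was called (adjusted p = 0.0628 and 0.116). The lowest, median and highest adult DHT IP levels were 7.88, 34.2 and 59.5 CPM, and the adult vehicle IP levels were 7.88, 10, 12.3, 12.5 and 29.8 CPM. The groups overlapped, and the difference between DHT and vehicle in adult IP was 1.07 ± 0.42 (edgeR adjusted p = 0.449). Kcnmb4, the beta subunit best known from brain, was at 30.3 CPM in the IP and 40.3 in the supernatant (-0.42 ± 0.12, adjusted p = 0.00276). A further beta subunit gene, Kcnmb1, was at 0.898 against 1.49 CPM and was not called (-0.74 ± 0.52, adjusted p = 0.255). Small-conductance (SK) channel genes Kcnn1, Kcnn2 and Kcnn3 and the sodium-activated Kcnt1 were not called.

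Among resting-potential genes, Kcnk3 (an acid-sensitive two-pore channel, TASK-1) was lower in the IP by 0.63 ± 0.10 on the log2 scale (edgeR adjusted p = 4.48e-07), at 21.7 against 34.4 CPM. Of the inward rectifiers, Kcnj12 (-0.66 ± 0.20), Kcnj4 (-0.67 ± 0.19) and Kcnj9 (-0.27 ± 0.10) were lower, with edgeR adjusted p of 0.00485, 0.00278 and 0.018. Kcnj9 encodes a G-protein-gated subunit, and of its partners Kcnj3 stood at -0.26 ± 0.27 and Kcnj6 at -0.70 ± 0.36, neither called. The pore genes of the ATP-sensitive channel, Kcnj11 and Kcnj8, were not called. The other genes lower in the IP were Kcnh2, the pore of the HERG current (-0.32 ± 0.13, edgeR adjusted p = 0.0375), and Kcnq1ot1 (-0.50 ± 0.13, adjusted p = 0.00161). In the pair without Cre the ratio of IP to supernatant was also below 1 for each gene called lower in this paragraph. It was 0.534 for Kcnk3, 0.826 for Kcnj12, 0.415 for Kcnj4, 0.858 for Kcnj9, 0.437 for Kcnh2 and 0.860 for Kcnq1ot1.

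The last 4 genes called lower averaged under 1 CPM in both fractions, and in them many IP libraries were at 0 while a few lay above every supernatant library (2 for Kcng3, 5 for Kcne2 and 3 each for Kcnk5 and Kcnq1). Their log2 fold changes ran from -4.11 ± 0.59 (Kcng3) to -2.25 ± 0.63 (Kcne2) in the edgeR fit, but mean levels differed less. In the IP and the supernatant these were 0.114 and 0.251 CPM for Kcng3, 0.280 and 0.339 for Kcnk5, and 0.456 and 0.544 for Kcnq1. The mean of Kcne2 was higher in the IP, at 0.224 against 0.185 CPM, opposite to its fitted value. Kcng3 had no read in 8 of 12 young and 10 of 11 adult IP libraries and a read in all 23 supernatant libraries, up to 0.558 CPM. Kcnk5 and Kcne2 had no read in any of the 11 adult IP libraries, while the highest young IP libraries reached 3.02 and 1.41 CPM. For Kcnq1, 8 of 11 adult and 5 of 12 young IP libraries were at 0, and the highest young one was at 4.84 CPM. A missing gene was more common in the adult IP overall: of the 85 tested members, 10 ± 1.58 had no read per library in adult vehicle (SD, n = 5) and 10.3 ± 3.39 in adult DHT IP (n = 6), against 3.67 ± 1.75 and 3.83 ± 2.14 in young IP and under 1 on average in each supernatant group. A count of 0 allows up to 3 counts, counting error only.

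The pair of libraries without Cre gives the background of the capture, with 1 library per fraction and so no test. Member transcripts added up to 1830 CPM in this IP, inside the 1531 to 1944 CPM of the young vehicle IP with Cre, so the IP holds potassium channel RNA without tagged ribosomes. CPM are shares of a library's own total, so these values do not give the amount of RNA captured. By the ratio of CPM + 0.5, 18 of the 85 tested members differed at least 2-fold in this pair, 3 higher in the IP, among them Kcnh4 (5.51 against 2.04 CPM) and Kcnb2 (14.9 against 6.44 CPM), and 15 lower. That is 21.2% of the members against 19.5% of all genes, with 9.33% of all genes higher and 10.1% lower. The median log2 ratio of the members was -0.36 against 0 for all genes, and in young vehicle mice with Cre it was -0.040 against 0.039. Kcnmb2 and Kcng4 were not high in this IP. Kcnmb2 was at 1.20 CPM (95% exact interval 0.854 to 1.64) against 2.34 CPM in its supernatant, and Kcng4 at 1.66 CPM (1.25 to 2.17) against 2.95 CPM. Among genes called lower in the IP with Cre, the ratio in this pair was 0.721 for Kcna3, 0.655 for Kcna1, 0.718 for Kcnma1 and 0.113 for Kcnq3. That of Kcnmb4, also called lower, was 1.16. What this background adds to the single differences between fractions was not tested.

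**Figure D3:**
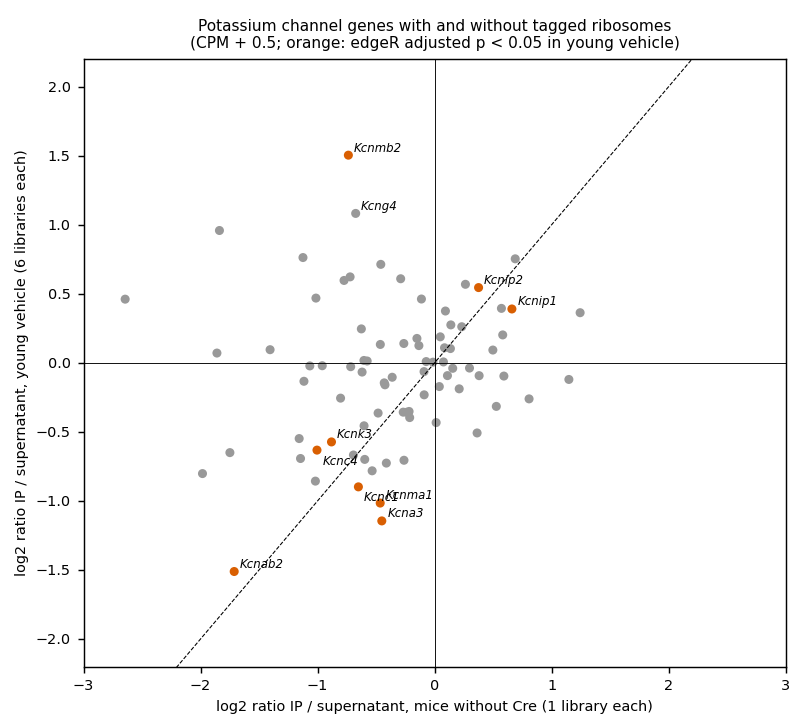
Log2 ratio of IP to supernatant (CPM + 0.5) of 82 of the 85 tested genes in the pair without Cre (x axis, 1 library each) and in young vehicle mice with Cre (y axis, means of 6 libraries each); orange points were called in young vehicle mice and the dashed line marks equal ratios. Kcnmb2 and Kcng4 lie left of 0 and high, and Kcnab2 lies near the line at the lower left.

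The change with age in the IP minus that in the supernatant asks whether age acts differently in the captured RNA. It was called for 1 member in vehicle mice (Kcng3, lower; 1.04% of all genes called, 0.774% lower) and for 1 in DHT mice (Kcne3, lower; 0.882% called, 0.732% lower), and both rest on libraries at 0. Kcng3 had reads in 4 of 6 young vehicle IP libraries, up to 1.37 CPM, and in 1 of 5 adult ones at 0.0256 CPM. Kcne3 had reads in 4 of 6 young DHT IP libraries, up to 1.1 CPM, and in 0 of 6 adult ones. With the replicate block, with limma-voom and with a filter of 1 CPM, 0 members were called in either treatment. The count also moved in 18 of 22 fits without 1 library in vehicle mice and in 13 of 24 in DHT mice.

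Within the IP, few members were called with age. In vehicle mice 1 of 82 tested members was called, lower in adults, against 3.83% of all 15890 genes (2.04% higher and 1.79% lower). In DHT mice 3 were called (3.66% against 7.12% of all genes), 1 higher (3.8% of all genes) and 2 lower (3.32%). Kcnip2, whose protein binds Kv4 pores and brings them to the surface, was lower in adults under both treatments. Its levels in the vehicle IP were 58.5, 61.8, 64.6, 69.4, 76.3 and 93.0 CPM in young and 28.2, 38.6, 39.0, 46.6 and 49.6 CPM in adult mice. In the DHT IP the lowest, median and highest were 51.8, 65.8 and 76.4 CPM in young and 33.8, 41.6 and 48.2 CPM in adult mice. Young and adult libraries did not overlap under either treatment. The log2 fold change was -0.77 ± 0.16 in vehicle (edgeR adjusted p = 0.00757) and -0.66 ± 0.15 in DHT mice (adjusted p = 0.00929). Without young vehicle IP replicate 1 the first was -0.67 (adjusted p = 0.0529), and without the 10 highest sample numbers the second was -0.68 (adjusted p = 0.0812).

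The supernatant showed Kcnip2 at 48.3 ± 9.68 and 45.2 ± 5.40 CPM in young and adult vehicle mice and at 51.9 ± 5.29 and 44.5 ± 6.87 in DHT mice, with log2 fold changes of -0.12 ± 0.12 and -0.22 ± 0.11 (edgeR adjusted p = 0.514 and 0.178). The change in the IP minus that in the supernatant was -0.61 ± 0.20 in vehicle and -0.44 ± 0.19 in DHT mice, and neither passed (edgeR adjusted p = 0.129 and 0.333). In young mice Kcnip2 was higher in the IP than in the supernatant, by 0.56 ± 0.14 in vehicle (adjusted p = 0.00209) and 0.37 ± 0.14 in DHT (adjusted p = 0.0488, or 0.0532 with the replicate block and 0.0666 to 0.0684 with RLE size factors, a filter of 1 CPM and limma-voom). The DHT call was lost in 9 of 12 fits without 1 library, with adjusted p up to 0.203 without young DHT IP replicate 6, and both were lost without the 10 highest sample numbers (0.123 and 0.12). In adults the values were -0.06 ± 0.15 and -0.07 ± 0.14. In the IP, oligodendrocyte markers were lower in adults as well, 4 of 7 under each treatment, with summed levels of 3651 to 4834 CPM in young and 1531 to 2275 in adult vehicle mice and 3543 to 5428 and 1227 to 3997 in DHT mice, and their part in the result was not tested.

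Kcnmb4 was also called with age in the IP of DHT mice. It was lower in adults, with lowest, median and highest levels of 28.9, 42.1 and 48.5 CPM in young and 9.55, 21.1 and 29.1 in adult DHT mice (-0.98 ± 0.29, edgeR adjusted p = 0.0409). The young and adult libraries overlapped. In the same comparison 3 of 8 neuron markers were higher and 0 lower (summed 4964 to 5602 CPM in young and 5914 to 7978 in adult DHT IP), and their part was not tested. In vehicle mice Kcnmb4 stood at -0.74 ± 0.31 (adjusted p = 0.194), and the change with age differed between the treatments by -0.24 ± 0.42 (adjusted p = 1). The DHT call of Kcnmb4 was lost without the 10 highest sample numbers (adjusted p = 0.383) and in 8 of 12 fits without 1 library, with adjusted p up to 0.113 (without adult DHT IP replicate 4). Without 1 library the count of 3 in DHT mice became 1 when young DHT replicate 2, 5 or 6 or adult DHT replicate 2 or 4 was left out, and 5 without adult DHT replicate 5. In vehicle mice the count of 1 became 0 without young vehicle replicate 1 and 2 without adult vehicle replicate 4.

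**Figure D4:**
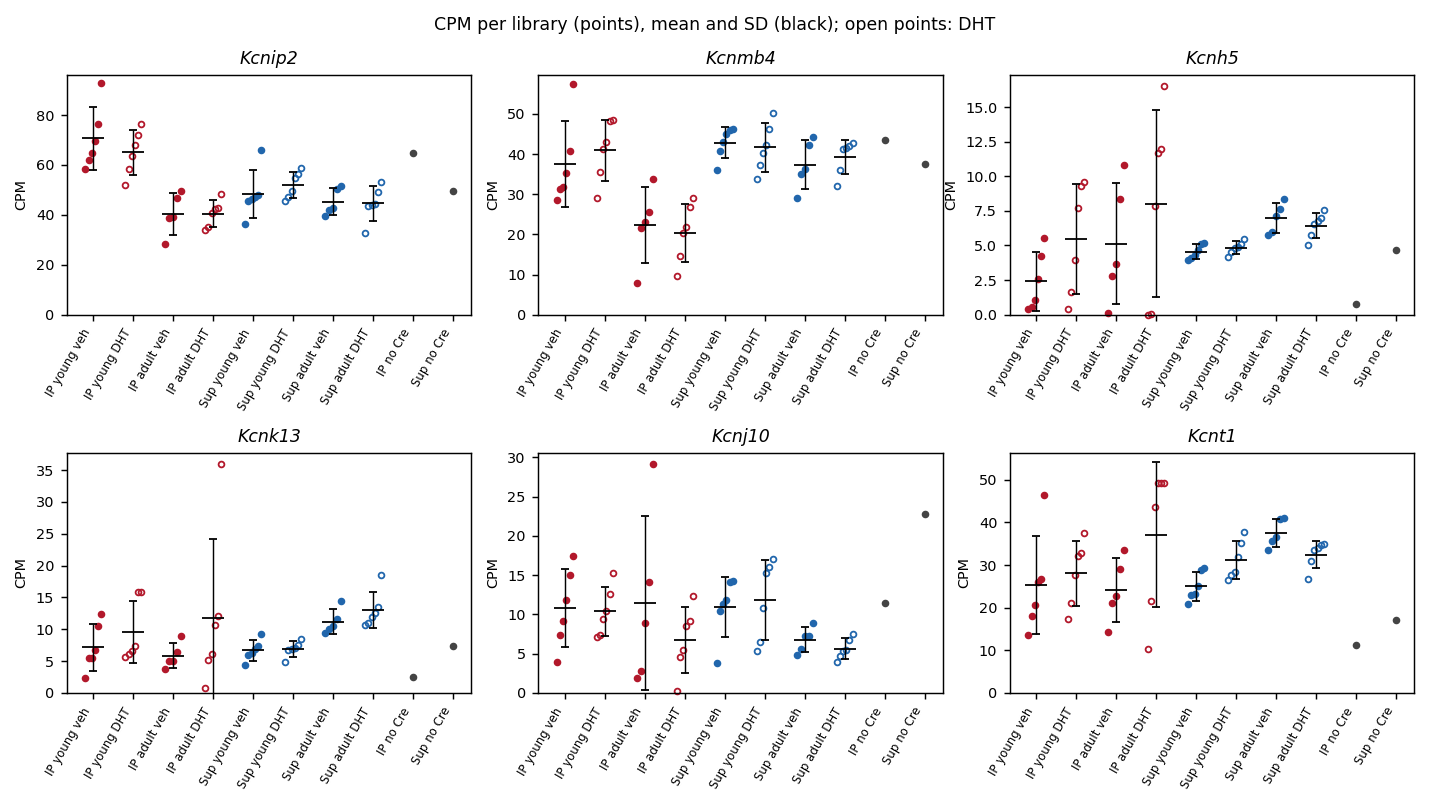
CPM (y axis, linear from 0) of 6 genes named for age in each library, with the mean and SD of each group in black; red points are IP, blue supernatant and dark grey the pair without Cre, and open points are DHT. Kcnip2 is lower in adult than in young IP without overlap, and Kcnk13 and Kcnh5 have higher means in adult than in young supernatant.

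In the supernatant, the tissue around the GnRH neurons, the share of members called with age was near that of all genes in vehicle mice and lower in DHT mice. In vehicle mice 17 of 83 were called (20.5%, against 20.3% of all 16286 genes), 15 of them higher in adults (18.1% against 10.1%) and 2 lower (2.41% against 10.2%). In DHT mice 10 were called (12%, against 19.9% of all genes), 7 higher (8.43% against 9.47%) and 3 lower (3.61% against 10.5%). Of these, 6 were higher under both treatments (6 of the 15 and 6 of the 7), among them Kcnd3, Kcnh5, Kcnj3, Kcnk13 and Kcns2. The same overlap among all genes was not counted, so whether it is particular to the members is not known. Median log2 fold changes of the members were 0.12 in vehicle and 0.037 in DHT mice, against 0.010 and 0.011 for all genes. The vehicle count fell to 10 without young replicate 4, young replicate 5 or adult replicate 4 and to 8 without adult replicate 2. The DHT count fell to 6 without adult replicate 2 and to 4 without young replicate 4 or 6, and it was 4 without the 10 highest sample numbers. For these reduced fits the share of all genes called was not counted.

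Kcnk13, a two-pore channel gene known in microglia and other cells, had the largest rise of the called members in both treatments. In the 5 adult vehicle supernatants it was at 9.40, 10.1, 10.5, 11.6 and 14.4 CPM, against a lowest, median and highest of 4.44, 6.61 and 9.25 CPM in young ones, with no overlap. In DHT mice young supernatants ran from 4.83 to 8.52 CPM and adult ones from 10.6 to 18.5 CPM, again apart. The log2 fold changes were 0.72 ± 0.17 and 0.91 ± 0.17 (edgeR adjusted p = 0.00489 and 0.000502). Of 7 microglia markers, 1 was higher in adult vehicle supernatant and 0 in DHT, with summed levels of 32.3 to 63.8 CPM in young and 52.2 to 78.4 in adult vehicle and 33.0 to 77.8 and 31.5 to 74.9 in DHT mice, and their part in the result was not tested.

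Kcnh5, Kcns2, Kcnj3 and Kcnd3 also rose under both treatments. Kcnh5, of the EAG family, rose by 0.59 ± 0.13 and 0.41 ± 0.12, and the modifier Kcns2 by 0.61 ± 0.16 and 0.61 ± 0.15. Kcnj3, a G-protein-gated rectifier, rose by 0.56 ± 0.17 and 0.50 ± 0.17, and Kcnd3, a Kv4 pore, by 0.41 ± 0.13 and 0.35 ± 0.12. None of these 4 genes kept its DHT call without the 10 highest sample numbers, where the edgeR adjusted p ran from 0.11 (Kcns2) to 0.713 (Kcnd3). In fits without 1 library the DHT call of Kcnd3 was lost in 9 of 12 (adjusted p up to 0.122, without young DHT replicate 6), that of Kcnj3 in 5 (up to 0.0898, without young DHT replicate 4) and that of Kcnh5 in 3 (up to 0.0582, without adult DHT replicate 3), and the vehicle call of Kcnj3 in 2 of 11 (up to 0.0548, without young vehicle replicate 4). In vehicle mice Kcnq5, Kcnd1, Kcnd2, Kcnh1, Kcnj5, Kcns3, Kcnt2 and Kcnma1 also rose, from 0.30 ± 0.10 (Kcnma1) to 0.72 ± 0.25 (Kcnt2). The vehicle calls of Kcnd1, Kcnd2, Kcnd3, Kcnh1 and Kcnma1 were not followed one by one in the other fits. The call of Kcnt2 was lost in 8 of 11 fits without 1 library (adjusted p up to 0.112, without young vehicle replicate 1), that of Kcnj5 in 8 of 11 (up to 0.0993, without young vehicle replicate 4) and that of Kcns3 in 5 of 11 (up to 0.0825, without adult vehicle replicate 2). Kcnt2 also missed the threshold with limma-voom, RLE size factors, no filter, the replicate block and the compared groups alone (adjusted p from 0.0502 to 0.0679). So did Kcns3 with the compared groups alone (0.0891) and Kcnj5 with a term for the 10 highest sample numbers (0.0971). Without the 10 highest sample numbers the calls of Kcnt2 (adjusted p = 0.0549), Kcnj5 (0.113) and Kcnq5 (0.0566) were lost, at log2 fold changes of 0.83, 0.51 and 0.39. In DHT mice Kcnb2 also rose, by 0.37 ± 0.13 (adjusted p = 0.0398), a call lost in 7 of 12 such fits (up to 0.116, without adult DHT replicate 4) and without the 10 highest sample numbers (0.311).

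Kcnt1, a sodium-activated channel gene, was called with age in vehicle supernatant only. The 5 adult vehicle libraries were at 33.6, 35.6, 36.5, 40.7 and 41.0 CPM, all above the young vehicle libraries, which had a lowest, median and highest of 20.8, 24.1 and 29.3 CPM. In DHT mice young libraries were at 26.6, 30.2 and 37.7 CPM and adult ones at 26.6, 33.7 and 34.9 CPM, which overlap. The log2 fold changes were 0.56 ± 0.10 (edgeR adjusted p = 0.000502) and 0.06 ± 0.10 (adjusted p = 0.732). Their difference, -0.50 ± 0.14, had an unadjusted p of 0.00177 and an edgeR adjusted p of 0.875, so the treatments were not shown to differ.

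Genes lower in adult supernatant were fewer. In vehicle mice they were Kcne1l (-0.66 ± 0.21) and Kcnu1 (-0.43 ± 0.14), with edgeR adjusted p of 0.0256 and 0.0336. Both were lost without the 10 highest sample numbers (0.107 and 0.136) and in 4 and 5 of 11 fits without 1 library (up to 0.0747, without young vehicle replicate 5, and 0.118, without adult vehicle replicate 3). In DHT mice they were Kcnj10, Kcnj8 and Kcnk4. Kcnj10, an inward rectifier best known in astrocytes, fell from 11.9 ± 5.07 to 5.62 ± 1.34 CPM (-1.08 ± 0.28, edgeR adjusted p = 0.00885), with young libraries at 5.40 to 17.1 and adult ones at 3.92 to 7.55 CPM. In vehicle mice it stood at -0.72 ± 0.29 (adjusted p = 0.0849), and the change with age differed between treatments by -0.36 ± 0.40 (adjusted p = 0.918). Of 8 astrocyte markers 1 was lower in adult DHT supernatant and 0 were higher, with summed levels of 492.5 to 824 CPM in young and 348 to 704 in adult mice, and all 7 oligodendrocyte markers were lower under both treatments; their part in the result was not tested. Kcnj8, an ATP-sensitive pore known in mural cells, was at 1.54 ± 0.609 and 0.762 ± 0.213 CPM (-0.99 ± 0.33, edgeR adjusted p = 0.0339), and 2 of 8 endothelial and mural markers were lower too (summed 22.8 to 120 CPM in young and 17.9 to 162 in adult DHT supernatant); their part in the result was not tested. The calls of Kcnj8 and Kcnk4 (-0.51 ± 0.16) were lost without the 10 highest sample numbers (adjusted p = 0.502 and 0.219) and in 6 and 3 of 12 fits without 1 library (up to 0.0941, without young DHT replicate 4, and 0.0712, without adult DHT replicate 2).

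**Figure D5:**
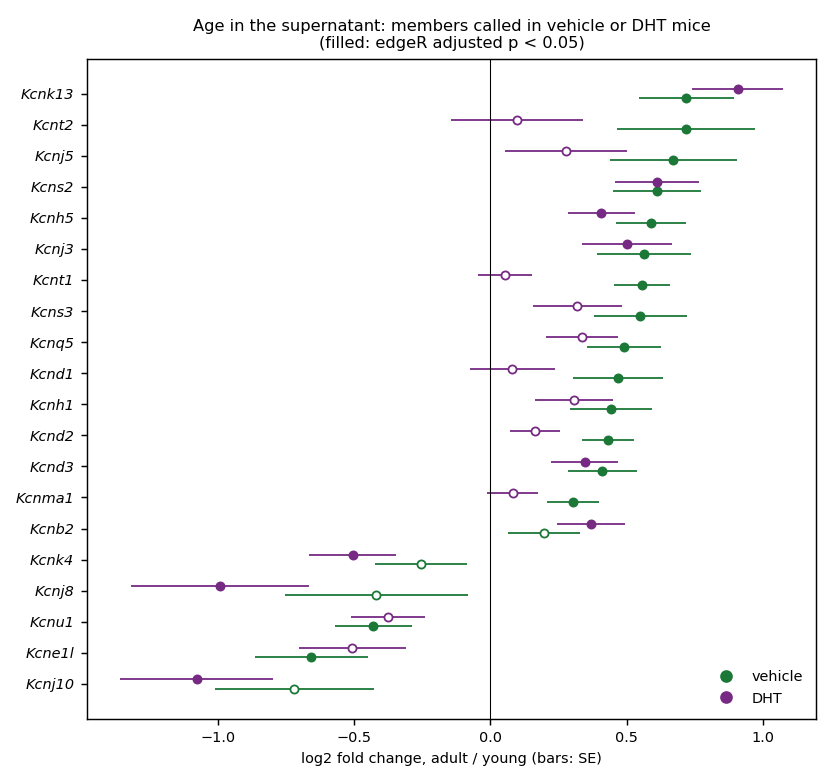
Log2 fold change between adult and young supernatant (x axis, with standard errors) of 20 of the 21 genes called in vehicle (green) or DHT (purple) mice; filled points were called at an edgeR adjusted p below 0.05. The genes filled in both colours are Kcnk13, Kcns2, Kcnh5, Kcnj3 and Kcnd3.

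Prenatal DHT against vehicle gave 0 called members in each of the 4 comparisons by edgeR, DESeq2 and limma-voom (0% of all genes called in young IP and in both supernatants, 0.00629% in adult IP). At an unadjusted p below 0.05 the members numbered 0 of 82 in young IP, 9 of 82 in adult IP, 6 of 83 in young supernatant and 0 of 83 in adult supernatant, while 1.5%, 8.29%, 4.59% and 2.08% of all genes were below it. The difference between the treatments' changes with age gave 0 called members in either fraction by the same 3 tools (0% of all genes), and 2 in each at an unadjusted p below 0.05 (5.39% of all genes in the IP and 5.45% in the supernatant). In young IP the smallest p were those of Kcnab1 (-0.43 ± 0.26), Kcnab3 (0.39 ± 0.23) and Kcnk1 (0.24 ± 0.16), each with an edgeR adjusted p of 1. In young supernatant they were those of Kcnt1 (0.30 ± 0.10), Kcnd1 (0.44 ± 0.16) and Kcna5 (0.33 ± 0.13), each with an adjusted p of 0.976.

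In adult IP, Kcnj12, a strong inward rectifier, was at 0.128, 0.786, 5.22, 5.71 and 6.21 CPM in the 5 vehicle libraries and at 7.04, 7.60, 9.18, 9.73, 11.4 and 18.3 CPM in the 6 DHT libraries. The groups did not overlap, but the log2 fold change of 1.55 ± 0.59 had an unadjusted p of 0.0151 and an edgeR adjusted p of 0.442. Kcnk7, a two-pore family gene, had reads in 2 of 5 vehicle libraries, up to 1.00 CPM, and in 0 of 6 DHT libraries (adjusted p = 0.395). Kcnk3 was at 16.3 ± 7.08 CPM in vehicle and 26.8 ± 5.48 in DHT mice (0.68 ± 0.28, adjusted p = 0.477). The adult supernatant had Kcnj12 at 12.3 ± 0.976 and 12.1 ± 1.74 CPM, a log2 fold change of -0.02 ± 0.10.

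Genes of other proteins that bind or power potassium handling were followed as a list of 22, of which 20 were tested between the fractions. Of these, 2 were higher in the IP and 10 lower, where 24.4% of all genes were higher and 21.7% lower, with a median log2 fold change of -0.21 against -0.0032. Cntnap2, which clusters Kv1 channels at the axon, was higher by 0.41 ± 0.06 and Lgi1, a secreted partner of Kv1 complexes, by 0.29 ± 0.11. Lower were Vapb (-1.70 ± 0.09), whose protein helps to cluster Kv2 channels, the sodium pump subunit Atp1b2 (-1.16 ± 0.09), the potassium-chloride cotransporter Slc12a5 (-0.71 ± 0.09) and the Kv2 partner Amigo1 (-0.79 ± 0.10), with edgeR adjusted p from 7.68e-20 (Vapb) to 7.73e-09 (Amigo1). Summed over the list of 22, the pair without Cre had 1660 CPM in the IP and 2959 in the supernatant. Young vehicle mice with Cre averaged 2140 and 3361 CPM, and what the background adds was not tested. In vehicle supernatant 7 of the 20 rose with age and 2 fell (10.1% and 10.2% of all genes), among them the Kv4 partners Dpp10 (0.57 ± 0.11) and Dpp6 (0.63 ± 0.14), and in DHT supernatant 2 rose and 1 fell (9.47% and 10.5%). In the IP 2 of 19 rose with age under each treatment (2.04% of all genes in vehicle and 3.8% in DHT mice), among them Slc12a5 in DHT mice (0.92 ± 0.22, edgeR adjusted p = 0.0102). Under prenatal DHT 0 of the list were called in any of the 4 comparisons.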

How the data were processed

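RNA was sequenced from IP and supernatant fractions of preoptic area punches, with a SMARTer v4 Ultra Low (poly A) kit, per the labels' protocols. The authors deposited 1 table of estimated counts, 23284 genes by 48 libraries, in which 98.49% of values are whole, and each was rounded before testing. The build was mm10, per the submitters' processing notes, and the tools included TopHat2 2.0.13 with Bowtie2 2.2.1, HTSeq 0.6.1, DESeq2 1.14.1, FastQC 0.11.3 and Cuffdiff 2.1.1. The counting tool and annotation are not given in the sources used here.

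Groups and replicate numbers came from the labels. In R 4.3.3 with edgeR 4.0.16 and limma 3.58.1, genes passed filterByExpr (minimum count 10, total 15), libraries were scaled by TMM, and the robust quasi-likelihood F test was run over all genes with Benjamini-Hochberg adjustment and a threshold of 0.05. Fractions were compared in 1 fit of 46 libraries (16660 genes), and age and DHT in 23 libraries per fraction (15890 genes in IP, 16286 in supernatant). Standard errors came from the F statistic, and CPM are counts scaled to the library total. The pair without Cre entered no fit. Exact intervals are Poisson, cover counting error only, and at these depths 1 read is worth well under 0.1 CPM. The fits were checked on simulated counts.

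Each IP was taken as tied to the supernatant of its number because a depleted supernatant is what an IP leaves, which the labels do not state. Deviations from group means correlated above 0.1 in 17 of 23 such pairs (range -0.070 to 0.403, median 0.16), and 19 of 23 matched their own number best. Members named per comparison were up to 10 called ones per direction with the largest change, provided their higher group averaged 1 CPM or more, or the 3 with the smallest p, and members long studied in neurons or leading their class. Members under 1 CPM, and the 13 genes checked for lone libraries, were named after their values were seen. A few genes that were tested and counted are not reported here. The members, classes and lists were chosen with earlier results of these data known. Alternatives were limma-voom with sample weights, DESeq2 1.42.0, RLE size factors, a filter of 1 CPM or none, fits of only those groups that were compared, the replicate block, a term for the last 10 sample numbers, a pseudocount of 0.1 for the pair without Cre, and each library left out. Fits without those 10 libraries were added after seeing the data. Exon lengths and positions came from GENCODE M21.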

Additional observations from a re-analysis of the deposited data

Results flagged for a closer look

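Among 13 genes and 8 groups, 104 groups in all, 7 held a library far from the others by Dixon's test. In the IP these were Kcnc1 at 138 CPM and Kcnma1 at 29.8 CPM in adult vehicle mice and Kcnk13 at 35.9 CPM in adult DHT mice, each the highest of its group. In the supernatant they were Kcna3 at 12.7 CPM in adult vehicle mice, the lowest of its group, and, as the highest of theirs, Kcnk13 at 18.5 and Kcnk3 at 41.6 CPM in adult DHT mice and Kcnmb2 at 3.21 CPM in young vehicle mice. The 13 genes were named after their values were seen, so the 7 cannot be set against a chance rate.

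The change with age differed between IP and supernatant for Kcng3 in vehicle mice (log2 difference -6.04) and for Kcne3 in DHT mice (-8.84), by the interaction term of the edgeR fit. Nearly all adult IP libraries of these genes were at 0, so both values depend on the prior count and are no bound.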

How the results depend on the processing

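Of the 83 calls of single members that were followed one by one, none turned direction. For these, 79 of 712 repeats under other settings and 157 of 1543 repeats without 1 library missed the threshold. They were up to 10 per direction and comparison, with a higher group averaging 1 CPM or more. The remaining calls, among them those of Kcng3, Kcne2, Kcne3, Kcnk5 and Kcnq1, entered only the counts of called members. Kcnab3 in DHT against vehicle, young IP, which was not called, turned to -0.039 without the last 10 sample numbers. Counts of called members that moved by over 1.5 times were as follows. For the fractions, the mean of the conditions gave 27, against 51 (5 higher) with limma-voom and 49 with the replicate block. Young vehicle gave 11, against 18 with limma-voom and 6 without the last 10 sample numbers, and young DHT gave 13, against 5 without them. Adult vehicle gave 15, against 5 with the compared groups alone, and adult DHT gave 14, against 6 with limma-voom, 8 with the 1 CPM filter and 6 with the compared groups alone. The IP minus supernatant change with age gave 1 in vehicle mice, against 3 with DESeq2 and 0 with limma-voom, without a filter, with the 1 CPM filter, the replicate block, the term for the last 10 sample numbers and the compared groups alone; in DHT mice the 1 became 0 with limma-voom, the 1 CPM filter, the replicate block and the compared groups alone. Age in the IP of DHT mice gave 3, against 6 with DESeq2, 1 with the term and 0 without the last 10 sample numbers. Age in the supernatant gave 17 in vehicle mice, against 11 with the compared groups alone, and 10 in DHT mice, against 3 with the term and 4 without the last 10 sample numbers. The causes were not tested. Except for the replicate block in the mean of the conditions, the share of all genes called was not counted in these fits. The count at 2-fold in the pair without Cre moved less, from 18 to 23 with the smaller pseudocount.

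Leaving out 1 library gave 26 to 34 for the mean of the conditions, 9 to 12, 9 to 15, 14 to 21 and 11 to 16 for the 4 conditions (young vehicle, young DHT, adult vehicle, adult DHT), 0 to 2 and 0 to 3 for the change with age between fractions in vehicle and DHT mice, 0 to 2 and 1 to 5 for age in the IP, and 8 to 18 and 4 to 14 for age in the supernatant. All 6 comparisons of DHT stayed at 0 in these fits. For age and DHT within a fraction, numbers tie no samples, and the replicate block gave 18 in vehicle and 14 in DHT supernatant and left the IP counts at 1 and 3. Members with no read in a library were most frequent in adult IP. The IP libraries with the most and the fewest counts, adult DHT replicates 5 and 3 (47054029 and 28672556), each had 14 such members. The supernatant library with the fewest counts, young DHT replicate 6 (28136000), had 1. The part of depth was not tested.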
